A study of Mus musculus with 10 samples.

Results

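The 44 collagen genes described here were all genes, of 53801 in the table, whose symbol reads Col, a number, the letter a and a number. They comprise 11 fibrillar, 6 basement membrane, 9 FACIT (fibril-associated), 6 beaded filament, 4 transmembrane and 8 other collagen genes, the last being network-forming, anchoring-fibril, multiplexin and unclassed types. RNA was sequenced from 10 lines of mouse embryonic fibroblasts (MEFs), primary connective tissue cells grown in DMEM with foetal calf serum from C57BL/6 embryos at embryonic day 13.5, after removal of the head, liver and heart. The study asked what the loss of either of 2 subunits of the MiDAC histone deacetylase complex does to transcription.

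The groups were 3 MIDEAS-/- lines with 3 MIDEAS+/+ lines of the same family, and 2 DNTTIP1-/- lines with 2 DNTTIP1+/+ lines of theirs. The homozygous knockouts carry CRISPR/Cas9 deletions in exon 2 of Mideas (MIDEAS-del1) or Dnttip1 (DNTTIP1-del1) that lead to a premature stop, in every cell of the embryo. The MEFs were a mixed primary culture of the rest of the body, so that fewer cells of a type and less RNA per cell cannot be told apart in any value below. The values are normalised counts, that is, recovered reads scaled by the size factor of each library.

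Collagens are secreted or membrane proteins whose chains wind around each other into helical trimers. Types I, III and V build the fibrils of connective tissue, type IV the network of basement membranes and type VI beaded filaments, while FACIT collagens such as types IX, XII and XIV sit on the surface of fibrils. Fibroblasts are the main source of the fibrillar types, whereas types II, IX, X and XI are known from cartilage.

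The promoters of 35 of the 44 collagen genes had an entry in RefSeq (GRCm38.p6), as 38 windows of 300 bases from 250 before to 50 after a start site. Of those windows, 60.5% (23 of 38) held the GC box GGGCGG on either strand, against 35.7% of 32851 promoters of all genes. The TATA box TATAAA was found in 13.2% (5 of 38), against 13.6% of all promoters, and the SOX motif ACAATG in 2.63% (1 of 38, Col28a1), against 12.6%. Median GC content was 59.8% over the collagen windows and 52.7% over all promoters. These matches are a description of the letters and not of sites in use. Shown here are the windows of 3 genes that rose in MIDEAS-/- MEFs (Col9a2, Col23a1 and Col8a2) and that of Col4a2, which runs head to head with Col4a1 and kept a near-constant ratio to it. Capitals mark the GC boxes, and all letters are given 5′ to 3′.
Col9a2 (chr4:121039316-121039615, + strand): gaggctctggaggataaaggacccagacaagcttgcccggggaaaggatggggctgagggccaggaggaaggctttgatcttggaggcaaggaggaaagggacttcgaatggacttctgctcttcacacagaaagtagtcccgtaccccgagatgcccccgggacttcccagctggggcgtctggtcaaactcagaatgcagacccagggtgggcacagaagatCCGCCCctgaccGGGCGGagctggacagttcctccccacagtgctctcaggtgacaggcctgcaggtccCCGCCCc
Col23a1 (chr11:51289670-51289969, + strand): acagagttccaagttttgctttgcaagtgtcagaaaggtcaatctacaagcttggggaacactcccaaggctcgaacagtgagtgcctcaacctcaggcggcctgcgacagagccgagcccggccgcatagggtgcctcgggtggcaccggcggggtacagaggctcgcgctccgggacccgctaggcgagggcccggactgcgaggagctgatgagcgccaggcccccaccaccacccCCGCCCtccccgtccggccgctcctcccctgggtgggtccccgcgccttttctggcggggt
Col8a2 (chr4:126286544-126286843, + strand): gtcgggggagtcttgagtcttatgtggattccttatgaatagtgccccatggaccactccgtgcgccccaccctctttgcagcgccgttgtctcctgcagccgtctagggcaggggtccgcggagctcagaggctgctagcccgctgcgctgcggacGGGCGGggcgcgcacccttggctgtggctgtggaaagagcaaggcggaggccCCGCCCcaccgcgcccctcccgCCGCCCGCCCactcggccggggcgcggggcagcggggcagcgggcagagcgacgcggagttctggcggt
Col4a2 (chr8:11312555-11312854, + strand): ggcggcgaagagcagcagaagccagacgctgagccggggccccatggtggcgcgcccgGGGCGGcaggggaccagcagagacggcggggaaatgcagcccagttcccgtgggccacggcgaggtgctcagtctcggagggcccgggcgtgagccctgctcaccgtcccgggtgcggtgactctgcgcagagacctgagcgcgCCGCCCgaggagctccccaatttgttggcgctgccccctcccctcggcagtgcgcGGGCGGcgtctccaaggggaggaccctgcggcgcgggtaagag
Col9a2 held 3 GC boxes, Col23a1 held 1, Col8a2 held 4, of which 2 overlap each other, and Col4a2 held 3. Of the other genes that rose, Col6a6 held 2 in its window and Col9a1 held 0 in both of its windows. Col26a1 and Col14a1, which also rose, had no window. The windows of Col4a2 and Col4a1 share 78 bases.

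Collagen transcripts made up close to the same share of all reads in every library. The share was 1.07, 0.877 and 0.997% in MIDEAS+/+ replicates 1, 2 and 3 and 0.947, 1.03 and 1.12% in MIDEAS-/- replicates 1, 2 and 3. It was 1.01 and 0.982% in DNTTIP1+/+ and 0.956 and 1.05% in DNTTIP1-/- MEFs. Knockout and wild-type libraries overlapped in both families, with differences of 0.049 percentage points (exact two-sided permutation test, p = 0.6, smallest possible p = 0.1) and 0.0084 percentage points (p = 1, smallest possible p = 0.333). Neither design could reach a p of 0.05.

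Per kilobase of transcript, the order of levels was led by the fibril builders. Mean levels over the 10 libraries were 2144 normalised counts per kilobase for Col1a1, 2070 for Col1a2, 1589 for Col3a1, 1402 for Col5a1 and 1400 for Col5a2. Col4a1 (1350), Col6a1 (1311), Col6a2 (1254), Col4a2 (1247) and Col12a1 (1184 normalised counts per kilobase) followed. The ranges over libraries of neighbours in this order overlapped: Col1a1 ran from 1736 to 2440 and Col1a2 from 1693 to 2429, and Col5a1 from 1215 to 1600 and Col5a2 from 1145 to 1693. The lowest levels were those of Col6a4 (0.858) and Col22a1 (1.36 normalised counts per kilobase). Col13a1 (1.66) and Col6a4 fell under a mean of 10 normalised counts and were not tested, which left 42 genes.

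**Figure D1:**
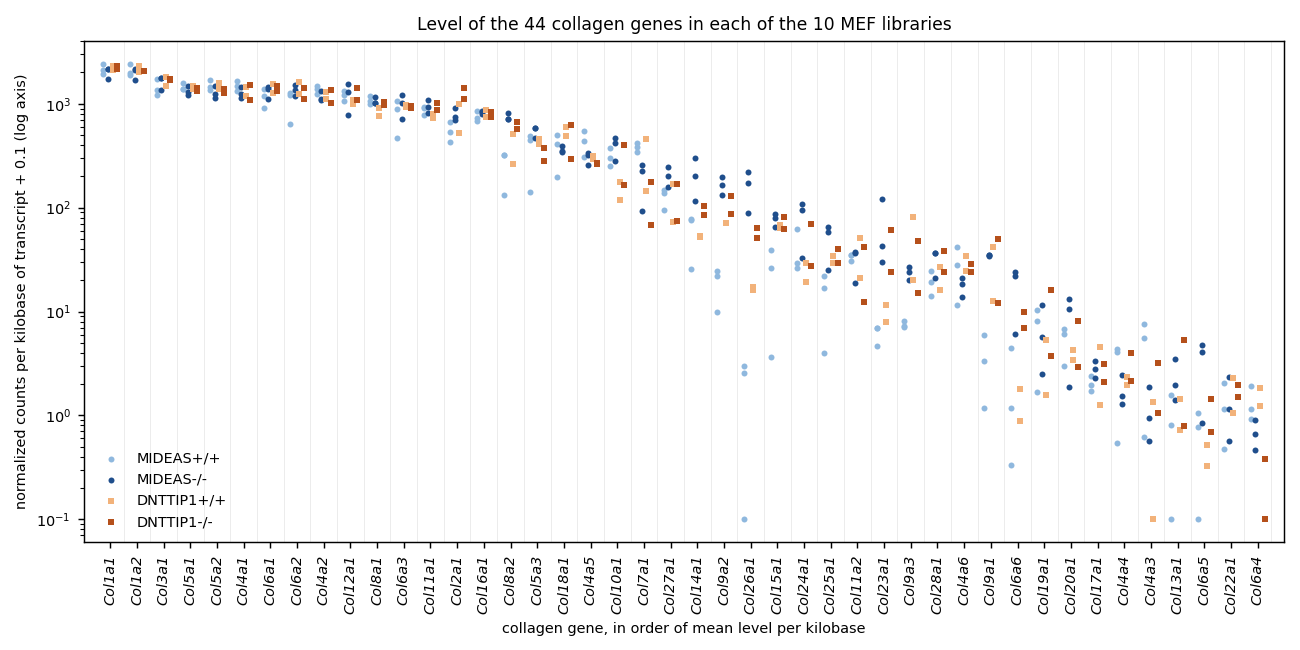
Level of each of the 44 collagen genes (normalised counts per kilobase of transcript plus 0.1, log axis) in each of the 10 MEF libraries, with genes in order of their mean level and colours for the 4 groups. The highest genes, from Col1a1 (mean 2144), vary little between libraries, whereas many genes from Col14a1 (mean 109) downwards spread widely, though not all.

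The spread between libraries was narrow for most of the highest genes and uneven below them. The authors removed duplicate reads, which lowers the highest genes most. The part of this step in the levels, spread, ratios and fold changes of the highest genes was not tested. Col1a1 differed 1.41-fold and Col16a1, a FACIT gene, 1.29-fold between its lowest and highest library. Col8a2 differed 6.08-fold, Col14a1 11.8-fold, Col9a2 20.1-fold and Col9a1 46.5-fold, ranges that take in the knockout libraries. At low levels some genes varied less than these 4, such as Col28a1 (2.70-fold), Col4a6 (3.68-fold) and Col17a1 (3.85-fold, from 6 to 25 reads a library). Of 44 genes, 5 had a library with no read (Col26a1, Col4a3, Col13a1, Col6a5 and Col6a4).

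The libraries held 12339970 to 19761295 reads. Dnttip1, counted over the whole gene, was lower in DNTTIP1-/- (197 and 173 normalised counts) than in DNTTIP1+/+ libraries (434 and 443). The whole-gene count of Mideas, named Elmsan1 in the table, was 1038 to 1728 in MIDEAS-/- and 1272 to 1576 in MIDEAS+/+ libraries, which overlap. It takes in exons outside the deletion and so does not check the label. The 10 highest genes took 9.38% of reads in MIDEAS-/- replicate 1 and 5.14 to 6.50% elsewhere, so that this library stands apart. For collagens it was MIDEAS+/+ replicate 2 that differed most: it had the lowest value of all 10 libraries for 17 of the 42 tested collagen genes (40.5%), against 12.0% of all tested genes. Col15a1 had 18.4 normalised counts in this library and 135 and 203 in the other MIDEAS+/+ libraries, and Col5a3 had 866 against 2730 and 3007. The same library had the lowest summed level of the chondrocyte markers (676 against 1422 and 1589 in the other MIDEAS+/+ libraries) and the highest of the skeletal muscle markers (3906 against 1537 and 1833). The part of these markers in the collagen values was not tested.

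In MIDEAS-/- MEFs, 7 of the 42 tested collagen genes rose and none fell. They were Col26a1, Col6a6, Col9a1, Col9a2, Col23a1, Col14a1 and Col8a2, with log2 fold changes from 1.64 to 6.65, and none was among the 10 highest genes per kilobase. The test was limma on log2(value + 1) over all genes with a mean of at least 10, at a Benjamini-Hochberg adjusted p under 0.1. It called 16.7% of the collagen genes, all higher, where the background over all 16227 tested genes was 5.65% called, 3.36% higher and 2.29% lower. The median log2 fold change of the 42 genes was 0.26, against -0.02 over all tested genes, with 28 positive and 14 negative. All MIDEAS-/- libraries lay above all MIDEAS+/+ libraries for 12 of the 42 (28.6%, against 11.5% of all tested genes) and below for 1, Col7a1 (2.38%, against 11%). Calls numbered 6 without MIDEAS+/+ replicate 2 (Col14a1 and Col6a6 lost, Col15a1 gained), 7 without MIDEAS-/- replicate 1 (Col6a6 lost, Col25a1 gained) and 4 without MIDEAS-/- replicate 2 (Col14a1, Col6a6 and Col8a2 lost).

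In DNTTIP1-/- MEFs no collagen gene passed the same test in limma or in edgeR, where 0.0308% of all tested genes did in limma, 0.0247% higher and 0.00616% lower. At an unadjusted p under 0.05, limma counted 3 collagen genes (Col23a1, Col6a6 and Col2a1), all higher (7.14%, against 6.46% of all tested genes), and edgeR 5 (11.9%, against 6.37%). DESeq2 called 2, Col23a1 and Col26a1, both higher (4.76%, against 1.27%). The median log2 fold change was 0.10, against 0.00 over all tested genes, with 26 positive and 16 negative. Both DNTTIP1-/- libraries lay above both DNTTIP1+/+ libraries for 11 genes (26.2%, against 20.1% of all tested genes) and below for 2 (4.76%, against 18.9%). With 2 libraries a group, a log2 change such as the 0.84 of Col14a1 came with a 95% interval from -0.35 to 2.02.

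**Figure D2:**
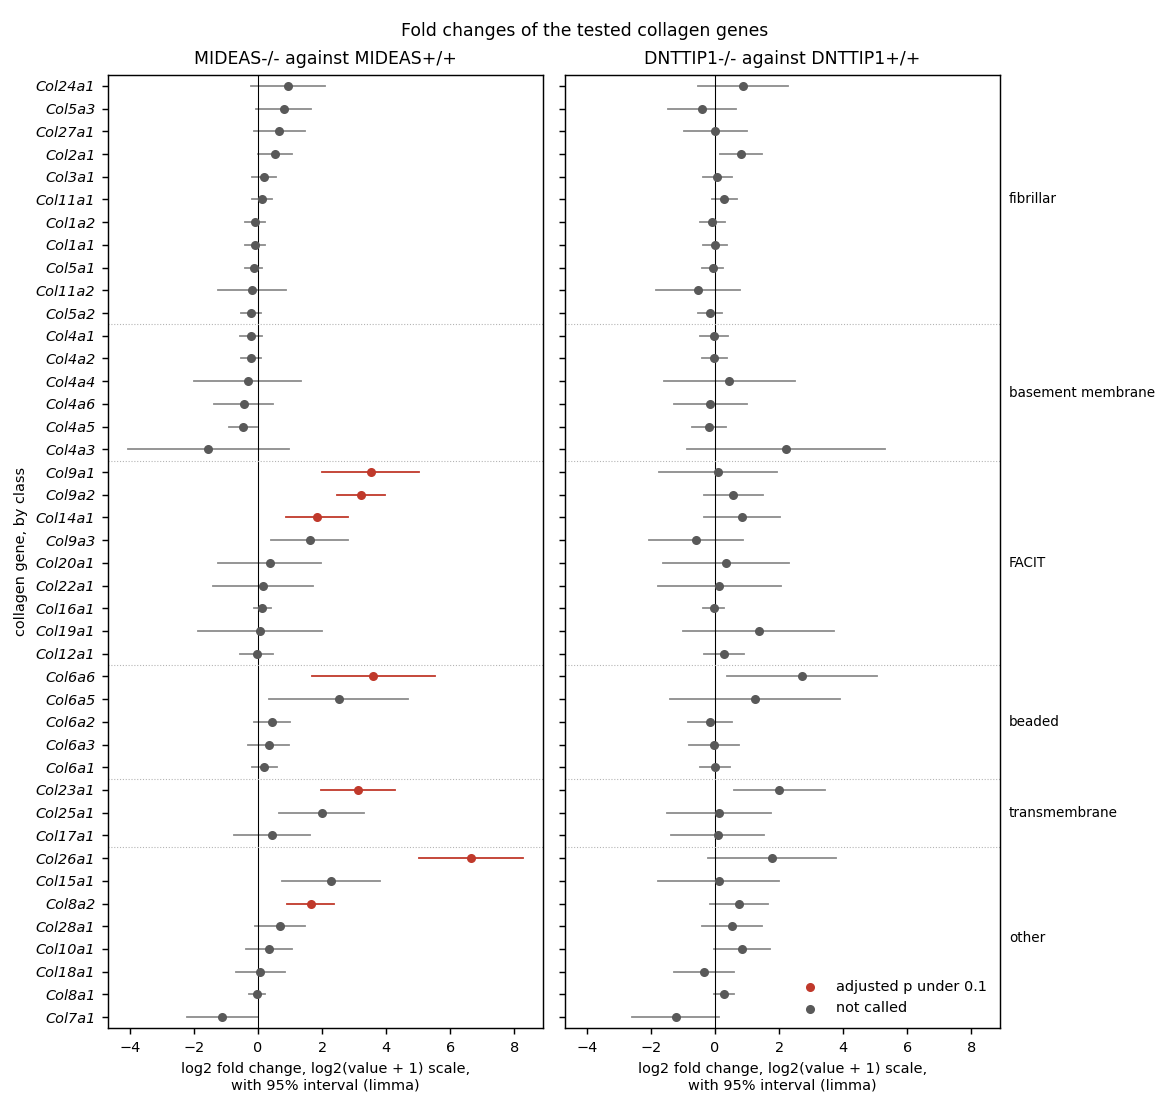
Log2 fold changes of the 42 tested collagen genes by class, with 95% intervals from limma, in MIDEAS-/- against MIDEAS+/+ (left) and DNTTIP1-/- against DNTTIP1+/+ MEFs (right). Red marks an adjusted p under 0.1: the 7 red genes are all on the left, from 1.64 (Col8a2) to 6.65 (Col26a1), and in the FACIT, beaded, transmembrane and other classes.

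Type IX collagen, the FACIT of cartilage fibrils, rose in MIDEAS-/- MEFs through Col9a1 and Col9a2. Col9a2 (ENSMUSG00000028626; mm10 chromosome 4, 121039385 to 121055322) gave 63.5, 28.6 and 72.0 normalised counts in MIDEAS+/+ replicates 1, 2 and 3 and 575, 486 and 387 in MIDEAS-/- replicates 1, 2 and 3. All knockout libraries were at least 5 times as high as any wild type of the family, with means of 483 ± 94.3 and 54.7 ± 23.0 (SD, n = 3 each). On the log2 scale it rose by 3.20 (standard error, SE, of 0.33, adjusted p = 0.00399), and the call held with any library left out. DNTTIP1+/+ libraries gave 209 and 209 and DNTTIP1-/- libraries 256 and 376, higher in both knockouts by 0.57 on the log2 scale (SE 0.41, adjusted p = 0.89).

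Col9a1 (ENSMUSG00000026147; chromosome 1, 24177610 to 24252684) gave 22.3, 4.09 and 12.5 normalised counts in MIDEAS+/+ and 133, 135 and 130 in MIDEAS-/- replicates 1, 2 and 3. The knockout libraries were nearly equal (133 ± 2.76) and all above the wild types (13 ± 9.11; SD, n = 3 each). The log2 fold change was 3.51 (SE 0.68, adjusted p = 0.0278), and the call held with any library left out (adjusted p from 0.0234 to 0.0981). Col9a1 in the DNTTIP1 family gave 48.5 and 159 in the wild types and 46.4 and 190 in the knockouts, which overlap (log2 fold change 0.10, SE 0.83). Its neighbour Col19a1, another FACIT gene, whose 3′ end lies 9205 bases away, had a log2 fold change of 0.06 in MIDEAS-/- MEFs (95% interval -1.87 to 1.99).

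Col9a3, the remaining chain gene of type IX, did not pass the test. It gave 24.5, 21.5 and 21.9 normalised counts in MIDEAS+/+ and 81.6, 60.5 and 73.2 in MIDEAS-/- MEFs, again with no overlap (log2 fold change 1.61, SE 0.54, adjusted p = 0.158). DESeq2 called it. DNTTIP1+/+ libraries had 61.2 and 250 and DNTTIP1-/- libraries 45.3 and 145, a log2 fold change of -0.60 (SE 0.66).

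Beside the rise of type IX, 2 of 8 tested chondrocyte markers passed the test in MIDEAS-/- MEFs, both higher (25.0%, against 3.36% of all tested genes). Matn4, a cartilage matrilin, gave 52.4, 48.0 and 60.2 normalised counts in MIDEAS+/+ and 469, 403 and 277 in MIDEAS-/- MEFs (log2 fold change 2.79, adjusted p = 0.0233), and Sox9, the transcription factor of the chondrocyte lineage, was higher by 0.80 on the log2 scale (adjusted p = 0.0827). The Matn4 call held with any library left out, whereas that of Sox9 was lost on leaving out any of the 6 MIDEAS libraries (adjusted p up to 0.31). Acan, the main proteoglycan of cartilage, gave 501, 26.6 and 526 in MIDEAS+/+ and 29.9, 251 and 261 in MIDEAS-/- MEFs (log2 fold change -0.61, SE 1.15). The 10 markers summed to 676 to 1589 normalised counts in MIDEAS+/+ and 1849 to 2116 in MIDEAS-/- libraries, and to 1655 to 2965 in DNTTIP1+/+ and 2118 to 2975 in DNTTIP1-/- libraries. Snorc and Chad were under a mean of 10. The part of these markers in the type IX values was not tested.

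The other cartilage collagens did not pass the test in either family. Col2a1, the fibrillar collagen of cartilage, gave 2208, 2723 and 3426 normalised counts in MIDEAS+/+ and 3574, 4621 and 3836 in MIDEAS-/- MEFs. The DNTTIP1 lines gave 2694 and 5023 in the wild types and 5687 and 7244 in the knockouts. In both families all knockouts lay above the wild types, with log2 fold changes of 0.54 (SE 0.24, adjusted p = 0.291) and 0.80 (SE 0.29, adjusted p = 0.636). Col11a1 (0.11), Col11a2 (-0.18) and Col10a1 (0.33), the latter of hypertrophic cartilage, had log2 fold changes in MIDEAS-/- MEFs with SEs of 0.14, 0.48 and 0.32. In DNTTIP1-/- MEFs these were 0.29, -0.53 and 0.84.

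Among the other FACIT genes, Col14a1 rose in MIDEAS-/- MEFs. Type XIV collagen is found on fibrils of skin and tendon. Col14a1 (ENSMUSG00000022371; chromosome 15, 55307750 to 55520803) gave 441, 145 and 427 normalised counts in MIDEAS+/+ and 660, 1136 and 1714 in MIDEAS-/- replicates 1, 2 and 3. The groups did not overlap (338 ± 167 and 1170 ± 528; SD, n = 3 each), and the log2 fold change was 1.85 (SE 0.43, adjusted p = 0.0538). The call did not hold on leaving out MIDEAS+/+ replicate 2 or MIDEAS-/- replicate 2 or 3, where adjusted p reached 0.155. DNTTIP1+/+ libraries gave 299 and 296 and DNTTIP1-/- libraries 585 and 486, again without overlap (0.84 on the log2 scale, SE 0.53, adjusted p = 0.875). Col12a1, the related type XII gene, had log2 fold changes of -0.04 (SE 0.23) and 0.27 (SE 0.28). The ratio of Col12a1 to Col14a1 counts was 31.7 to 83.7 in MIDEAS+/+ and 10.4 to 13.7 in MIDEAS-/- libraries, and 38 to 42 in DNTTIP1+/+ and 21.5 to 33.9 in DNTTIP1-/- libraries. Col16a1, Col20a1 and Col22a1 had log2 fold changes of 0.14, 0.36 and 0.15 without MIDEAS and -0.04, 0.35 and 0.13 without DNTTIP1, none past the test.

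Of the type VI genes, which encode beaded filaments around cells, the main chains kept their levels within the spread and the rare Col6a6 rose. Col6a6 (ENSMUSG00000043719; chromosome 9, 105687809 to 105828160) gave 37.9, 2.04 and 9.39 normalised counts in MIDEAS+/+ and 190, 211 and 52.4 in MIDEAS-/- replicates 1, 2 and 3. In the DNTTIP1 family it gave 14.8 and 6.82 in the wild types and 59.8 and 86.4 in the knockouts. Every knockout library was above the wild types of its family. The log2 fold changes were 3.59 (SE 0.86, adjusted p = 0.0569) and 2.71 (SE 1.05, adjusted p = 0.694), and the difference between them was -0.88 (95% interval -3.91 to 2.15). The MIDEAS call did not hold on leaving out MIDEAS+/+ replicate 2 or 3 or MIDEAS-/- replicate 1 or 2, where adjusted p reached 0.184. Exons of Col6a6 overlap Gm38314 on the other strand, and without a stated strand setting reads of both cannot be told apart.

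Col6a5, which lies 27917 bases from Col6a6 on the same strand, gave 8.92, 0 and 6.26 normalised counts in MIDEAS+/+ and 43.4, 37.2 and 6.92 in MIDEAS-/- MEFs, where the groups overlap (log2 fold change 2.52, SE 0.97, adjusted p = 0.221). The DNTTIP1 libraries gave 2.11 and 3.90 in the wild types and 12.4 and 5.47 in the knockouts (log2 fold change 1.25, SE 1.19). Col6a4, the last gene of this cluster and not tested, gave 13.4, 6.13 and 7.82 in MIDEAS+/+ and 4.13, 2.66 and 5.93 in MIDEAS-/- MEFs, lower in all knockouts. For the abundant chains Col6a1, Col6a2 and Col6a3 the log2 fold changes were 0.20, 0.44 and 0.33 without MIDEAS and 0.00, -0.16 and -0.03 without DNTTIP1, none past the test. Col6a2 gave 2504 normalised counts in MIDEAS+/+ replicate 2 and 4424 to 6347 in the other 9 libraries.

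Transmembrane collagens were rare transcripts in MEFs, and Col23a1 rose among them. Col23a1 (ENSMUSG00000063564; chromosome 11, 51289920 to 51583918) encodes a membrane collagen whose outer part can be shed. It gave 25.6, 38.8 and 38.3 normalised counts in MIDEAS+/+ and 683, 240 and 168 in MIDEAS-/- replicates 1, 2 and 3. Values in the DNTTIP1 family were 65.4 and 43.9 in the wild types and 347 and 137 in the knockouts. All knockouts lay above all 5 wild types, and replicate 1 was the highest in either knockout. The log2 fold change was 3.13 in MIDEAS-/- (SE 0.52, adjusted p = 0.0181), a call that held with any library left out. It was 2.00 in DNTTIP1-/- MEFs (SE 0.64, 95% interval 0.58 to 3.42, adjusted p = 0.542 from limma, 0.0848 from DESeq2), and the difference between the effects was -1.12 (95% interval -2.96 to 0.71).

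Col25a1, a transmembrane collagen known from neurons and developing muscle, gave 43.5, 10.2 and 57.1 normalised counts in MIDEAS+/+ and 66.1, 154 and 170 in MIDEAS-/- MEFs. The groups did not overlap, but the change did not pass the test (log2 fold change 1.98, SE 0.59, adjusted p = 0.115), whereas DESeq2 called it. In DNTTIP1-/- MEFs the log2 fold change was 0.12 (SE 0.72). Col17a1, a hemidesmosome component of skin, stayed at 6.33 to 24.4 normalised counts in every library, and Col13a1 at 0 to 16.5.

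Col26a1 had the largest log2 fold change of the 42 genes in MIDEAS-/- MEFs. It encodes a secreted collagen first described in mouse testis and ovary, and is ENSMUSG00000004415 (chromosome 5, 136741759 to 136883209). It gave 6.69, 0 and 7.82 normalised counts in MIDEAS+/+ replicates 1, 2 and 3, which stand for 6, 0 and 10 reads, and 596, 470 and 241 in MIDEAS-/- replicates 1, 2 and 3. In the DNTTIP1 family it gave 43.2 and 46.8 in the wild types and 140 and 174 in the knockouts. The knockouts were higher than the wild types of their own family without overlap, and the DNTTIP1+/+ libraries lay above the MIDEAS+/+ libraries. The log2 fold change was 6.65 in MIDEAS-/- (SE 0.73, adjusted p = 0.00535) and 1.77 in DNTTIP1-/- MEFs (SE 0.90, adjusted p = 0.814 from limma, 0.0562 from DESeq2). As wild-type values are near 0, the first of these moved from 5.51 to 7.04 as the pseudocount went from 5 to 0.5.

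Type VIII collagen forms a hexagonal network in the cornea and in vessel walls, from chains encoded by Col8a1 and Col8a2. Col8a2 (ENSMUSG00000056174; chromosome 4, 126286793 to 126314330) gave 1379, 578 and 1385 normalised counts in MIDEAS+/+ and 3082, 3083 and 3515 in MIDEAS-/- replicates 1, 2 and 3. The knockout libraries lay close together (3227 ± 250) and above all wild types (1114 ± 464; SD, n = 3 each). The log2 fold change was 1.64 (SE 0.33, adjusted p = 0.0332), and the call did not hold on leaving out MIDEAS-/- replicate 2 or 3, where adjusted p reached 0.107. Col8a2 in the DNTTIP1 family gave 2230 and 1147 in the wild types and 2488 and 2892 in the knockouts (log2 fold change 0.75, SE 0.41, adjusted p = 0.841). Col8a1 had log2 fold changes of -0.03 (SE 0.12) and 0.28 (SE 0.14). The ratio of Col8a1 to Col8a2 counts ran from 3.70 to 10.5 in MIDEAS+/+ and from 1.67 to 1.69 in MIDEAS-/- libraries.

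**Figure D3:**
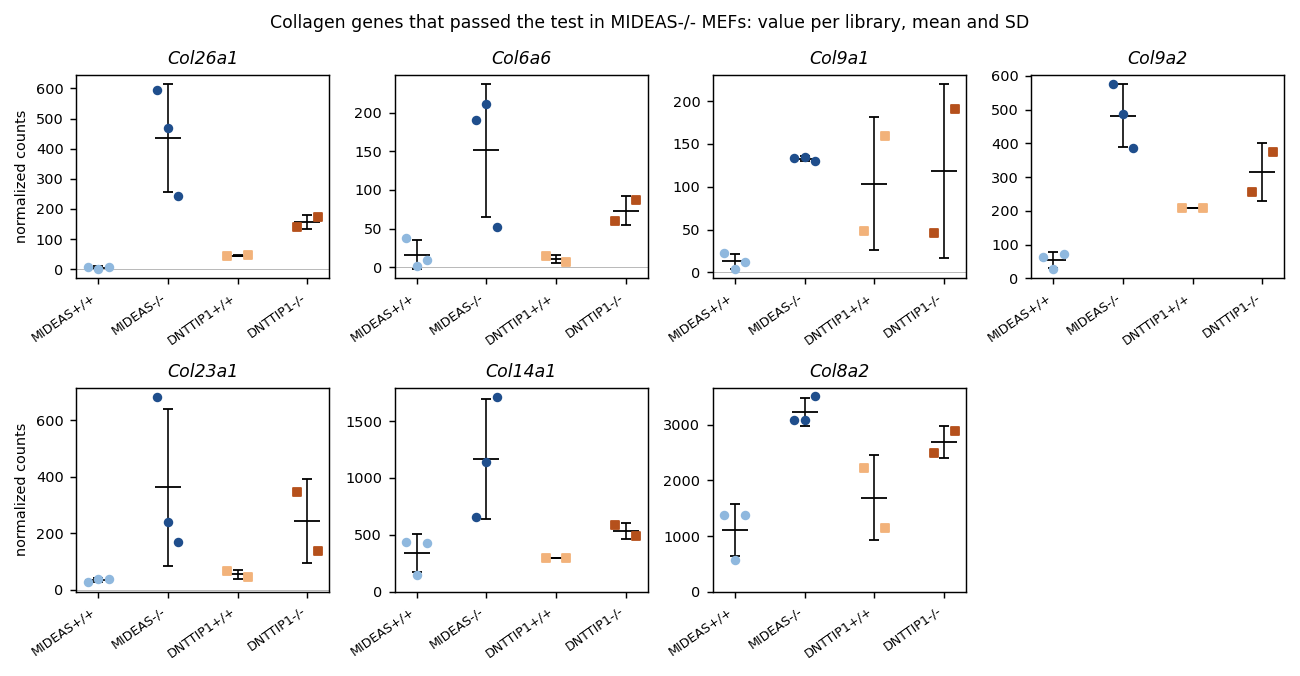
Normalised counts per library of the 7 collagen genes that rose in MIDEAS-/- MEFs, with the mean (long bar) and SD (error bar) of each group, n = 3 in MIDEAS and n = 2 in DNTTIP1 groups. All MIDEAS-/- points are above all MIDEAS+/+ points in each panel, while the DNTTIP1 groups overlap for Col9a1 (46.4 to 190).

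Col7a1 and Col15a1 did not pass the test in MIDEAS-/- MEFs, though the libraries of each did not overlap between the groups. Col7a1, which encodes the anchoring fibrils of skin, gave 3201, 3853 and 3565 normalised counts in MIDEAS+/+ and 866, 2358 and 2096 in MIDEAS-/- MEFs, lower in every knockout (log2 fold change -1.12, SE 0.50, adjusted p = 0.295). The DNTTIP1 lines had 1324 and 4197 in the wild types and 625 and 1625 in the knockouts, which overlap (log2 fold change -1.22, SE 0.61). Col15a1, a multiplexin of basement membrane zones, gave 135, 18.4 and 203 in MIDEAS+/+ and 334, 407 and 451 in MIDEAS-/- MEFs (log2 fold change 2.28, SE 0.69, adjusted p = 0.119), and 0.11 (SE 0.84) was its log2 fold change in DNTTIP1-/- MEFs. Col18a1, the other multiplexin, had log2 fold changes of 0.07 and -0.35, and Col28a1 0.69 and 0.53, none past the test.

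The 11 fibrillar genes held no call in either knockout, by limma, edgeR or DESeq2, and limma gave 1 at an unadjusted p under 0.05 in each (Col2a1). This was 9.09% of the class, against 16.6% of all tested genes in MIDEAS-/- and 6.46% in DNTTIP1-/- MEFs. The median log2 fold change of the class was 0.11 in MIDEAS-/- and 0.00 in DNTTIP1-/- MEFs. Col1a1 (ENSMUSG00000001506; chromosome 11, 94936224 to 94953042), the gene of the main chain of type I collagen, gave 14467, 12492 and 11494 normalised counts in MIDEAS+/+ and 12795, 10294 and 12948 in MIDEAS-/- MEFs. It gave 13747 and 12567 in DNTTIP1+/+ and 12790 and 13545 in DNTTIP1-/- MEFs. The groups overlapped in both families, with 95% intervals of the log2 fold change from -0.39 to 0.21 and from -0.37 to 0.37. Intervals for MIDEAS-/- were from -0.40 to 0.22 for Col1a2, from -0.18 to 0.56 for Col3a1, from -0.40 to 0.13 for Col5a1 and from -0.53 to 0.08 for Col5a2. Col5a3, a minor chain of type V, had a log2 fold change of 0.80 (SE 0.39) in MIDEAS-/- and -0.42 (SE 0.48) in DNTTIP1-/- MEFs. Col24a1 (0.95 and 0.86) and Col27a1 (0.67 and 0.01) did not pass the test either.

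The 6 basement membrane genes, all of type IV, held no call in either knockout by limma, edgeR or DESeq2. All 6 had negative log2 fold changes in MIDEAS-/- MEFs, with a median of -0.39. There limma gave 1 of the 6, Col4a5, at an unadjusted p under 0.05 (16.7%, against 16.6% of all tested genes). Col4a1 and Col4a2, the chains of nearly all basement membranes, had log2 fold changes of -0.21 (95% interval -0.57 to 0.14) and -0.22 (-0.54 to 0.11) in MIDEAS-/- and -0.03 each in DNTTIP1-/- MEFs. Col4a5 gave 2006, 3577 and 2890 normalised counts in MIDEAS+/+ and 1664, 2217 and 2081 in MIDEAS-/- MEFs, which overlap (log2 fold change -0.48, SE 0.19, adjusted p = 0.242). Its neighbour Col4a6 had a log2 fold change of -0.45 (SE 0.42).

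Col4a3 and Col4a4, which with Col4a5 form the network of the kidney glomerulus, were near the limit of detection. Col4a3 gave 4.46, 63.4 and 46.9 normalised counts in MIDEAS+/+ and 7.23, 15.3 and 3.96 in MIDEAS-/- MEFs. In the DNTTIP1 family it gave 0 and 10.7 in the wild types and 8.24 and 26.2 in the knockouts. Groups overlapped in both families, and the log2 fold changes of -1.55 (SE 1.13) and 2.21 (SE 1.38) did not pass the test. Col19a1, among the 5 largest log2 fold changes of DNTTIP1-/- MEFs at 1.36 (SE 1.06), gave 6.33 and 22.4 in the wild types and 15.5 and 67.8 in the knockouts.

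Among chains that assemble together, those of types I, IV (Col4a1 and Col4a2) and V (Col5a1 and Col5a2) were counted in the steadiest proportions of the pairs compared. The ratio of Col1a1 to Col1a2 counts lay between 1.1 and 1.23 over all 10 libraries, that of Col4a1 to Col4a2 between 1.07 and 1.13, and that of Col5a1 to Col5a2 between 1.19 and 1.35. Col4a1 and Col4a2 lie head to head on chromosome 8 with start sites 21 bases apart, and their first exons overlap on opposite strands. The ratio of Col6a1 to Col6a2 was 1.48 in MIDEAS+/+ replicate 2 and 0.982 to 1.22 elsewhere, and that of Col6a3 to Col6a1, another pair of abundant chains, ran from 1.07 to 2.00. The ratio of Col9a2 to Col9a1 ran from 1.3 to 7.0, and that of Col11a1 to Col11a2 from 20.5 to 100.2. The other type IV genes are also arranged head to head: the start sites of Col4a3 and Col4a4 are 72 bases apart, and those of Col4a5 and Col4a6, on chromosome X, 1309. The ratio of Col4a5 to Col4a6 was 9.01 to 26.5.

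**Figure D4:**
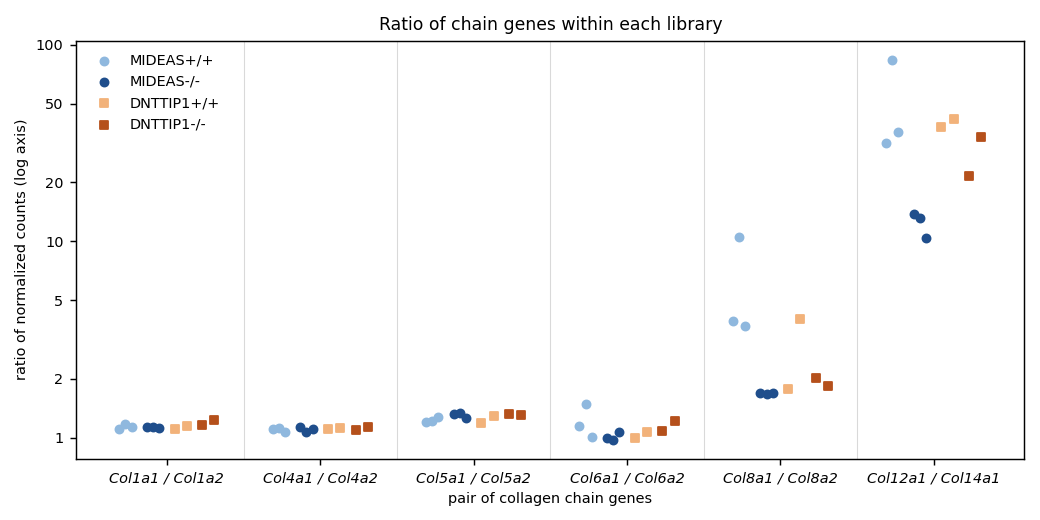
Ratio of normalised counts (log axis) of 6 pairs of collagen genes within each of the 10 libraries, coloured by group. The Col1a1 to Col1a2, Col4a1 to Col4a2 and Col5a1 to Col5a2 ratios lie between 1.07 and 1.35 in all libraries, whereas the Col8a1 to Col8a2 and Col12a1 to Col14a1 ratios are lower in all MIDEAS-/- than in all MIDEAS+/+ libraries.

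Whether the effects of the knockouts differ was tested as the difference between the log2 fold changes. None of the 42 collagen genes passed by limma or edgeR, and 0 of all 16227 genes passed by limma (0% called). By limma 4 collagen genes had an unadjusted p under 0.05 (9.52%, against 2.79% of all tested genes). All had the larger rise in MIDEAS-/- MEFs. They were Col26a1 (-4.87, 95% interval -7.46 to -2.29), Col9a1 (-3.42, -5.79 to -1.04), Col9a2 (-2.63, -3.81 to -1.45) and Col9a3 (-2.21, -4.12 to -0.31). DESeq2 called Col26a1 and Col9a2 (4.76%, against 0.074% of all tested genes). The wild types of the families were also apart for these genes, and the same wild-type libraries enter the knockout contrasts: DNTTIP1+/+ was above MIDEAS+/+ in all libraries by log2 differences of 3.50 for Col26a1, 2.93 for Col9a1, 2.02 for Col9a2 and 2.40 for Col9a3 (limma, adjusted p = 0.4 each). No gene passed between the wild types by limma (0% of all tested genes), and no collagen gene by edgeR. DESeq2 called those 4 (9.52%, against 1.65% of all tested genes). By limma 8 collagen genes (19.0%, against 10.7% of all tested genes) had an unadjusted p under 0.05 there, 5 higher and 3 lower in DNTTIP1+/+. With no overlap, 7 (16.7%, against 16%) were higher and 2 (4.76%, against 17.3%) lower in DNTTIP1+/+.

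Genes that modify, fold, secrete, trim and crosslink collagen were given by a list of 36, of which 35 were tested. In MIDEAS-/- MEFs, 1 rose and 1 fell, 5.71% of the list against the background of 5.65%. By limma 11 of the 35 had an unadjusted p under 0.05 there (31.4%, against 16.6% of all tested genes), 3 higher and 8 lower. Of the 35, 24 had negative and 11 had positive log2 fold changes. DESeq2 called 8 of the 35 (22.9%, against 10.3% of all tested genes), 2 higher and 6 lower, among them Adamts2, Fn1, Loxl2, Loxl3 and Tgm2. Loxl4, a lysyl oxidase-like enzyme that crosslinks collagen, gave 1070, 1410 and 1363 normalised counts in MIDEAS+/+ and 258, 469 and 423 in MIDEAS-/- MEFs, lower in every knockout (log2 fold change -1.77, SE 0.22, adjusted p = 0.0071). Adamts3, a protease that removes the amino-terminal propeptide of fibrillar procollagen, gave 76.9, 41.9 and 79.8 in MIDEAS+/+ and 220, 289 and 236 in MIDEAS-/- MEFs, higher in every knockout (log2 fold change 1.94, SE 0.44, adjusted p = 0.0493). The Adamts3 call did not hold on leaving out MIDEAS+/+ replicate 2 or MIDEAS-/- replicate 2 or 3, where adjusted p reached 0.194. The chaperone gene Serpinh1 (HSP47) and P4ha1, a prolyl hydroxylase gene, had log2 fold changes of -0.11 and -0.23, not past the test. The list's median was -0.06 in MIDEAS-/- and 0.01 in DNTTIP1-/- MEFs. In DNTTIP1-/- MEFs none passed by limma or edgeR. By limma 3 had an unadjusted p under 0.05 (8.57%, against 6.46% of all tested genes), and DESeq2 called 1, Creb3l1 (2.86%, against 1.27%).

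Of 10 collagen receptor genes 9 were tested, and none passed in either knockout by limma or edgeR. By limma, 3 in MIDEAS-/- (33.3%, against 16.6% of all tested genes) and 1 in DNTTIP1-/- MEFs (11.1%, against 6.46%) had an unadjusted p under 0.05. DESeq2 called Itga2 and Itga11, integrin chains that bind collagen, as lower in MIDEAS-/- MEFs (22.2%, against 10.3% of all tested genes). In limma, Itga11 had log2 fold changes of -0.42 in MIDEAS-/- (adjusted p = 0.165) and -0.54 in DNTTIP1-/- MEFs (adjusted p = 0.551). Of the 9, 8 were negative in MIDEAS-/- MEFs. Gp6, a platelet receptor, had no read in any library.

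The label of the cells was checked against their markers, and members of the marker lists of other cell types passed the test beside the collagen genes in the MIDEAS family. All 9 fibroblast markers had a mean of at least 10, and they summed to 12050 to 13778 normalised counts in MIDEAS+/+ and 14582 to 17412 in MIDEAS-/- libraries. Dcn, Lum and Fap rose in MIDEAS-/- MEFs (log2 fold changes 1.23, 2.52 and 1.38), of which Dcn and Lum encode small proteoglycans that bind collagen fibrils. They were 3 of 9 tested fibroblast markers (33.3%, against 3.36% higher over all tested genes). Of the 9, 5 had positive and 4 had negative log2 fold changes, down to -1.08. Of the 10 fits that leave out 1 library, the call was lost in 5 for Dcn, 5 for Lum and 8 for Fap, and edgeR did not call Lum. Of the osteoblast markers, Alpl (2.91) and Dmp1 (2.37) rose, and of the tendon markers Mkx (1.01). These were 2 of 5 tested osteoblast (40.0%) and 1 of 4 tendon markers (25.0%). All 5 osteoblast and 3 of the 4 tendon markers had positive log2 fold changes. Between the wild types of the families, limma gave 4 of the 5 osteoblast markers an unadjusted p under 0.05 (80.0%, against 10.7% of all tested genes). These 4 were higher in DNTTIP1+/+, and the other 1 had a negative log2 difference. None passed the test there. Calls were lost in 5 of these 10 fits for Alpl, 9 for Dmp1 and 4 for Mkx, and edgeR called no osteoblast marker (2 at an unadjusted p under 0.05). These lists summed to 849 to 979 in MIDEAS+/+ against 995 to 1245 in MIDEAS-/- libraries, and to 2492 to 3750 against 4067 to 4577.

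Of the muscle markers, Myh11 (-2.06), Des (-1.69) and Acta1 (-2.15) fell in MIDEAS-/- MEFs. Myh11 was 1 of 5 tested smooth muscle markers, and Des and Acta1 were 2 of 5 tested skeletal muscle markers. Over all tested genes, 2.29% were called lower. All 5 smooth muscle markers had negative log2 fold changes. Of the 5 skeletal muscle markers, 3 had positive log2 fold changes, up to 1.99, and only Des and Acta1 had negative ones. The smooth muscle list summed to 8308 to 11481 normalised counts in MIDEAS+/+ and 5387 to 7473 in MIDEAS-/- libraries, and the skeletal muscle list to 1537 to 3906 and 462 to 1160. Among epithelial markers Krt18 fell (-1.57), with list sums of 145 to 379 and 107 to 207, and Krt5, Krt14 and Epcam under a mean of 10. Of the 4 tested, 2 had positive log2 fold changes, up to 2.43, and 2 had negative ones. DESeq2 called Krt18 lower and Trp63 higher. Among endothelial markers Tek rose (2.61), with list sums of 356 to 710 and 459 to 614, and Pecam1 and Cdh5 under a mean of 10. Tek was 1 of 3 tested markers, and the other 2 had negative log2 fold changes, down to -1.85. On leaving out 1 library, calls were lost in 2 of the 10 fits for Myh11, 3 for Des, 4 for Acta1, 5 for Krt18 and 5 for Tek. Of the Schwann cell markers none passed by limma and 1 had an unadjusted p under 0.05 (S100b, which DESeq2 called higher), with list sums of 63.4 to 150 and 121 to 151. In DNTTIP1-/- MEFs no marker passed by limma, edgeR or DESeq2, and by limma Sox9, Mkx and Myh11 had an unadjusted p under 0.05. The sums of some lists did not overlap there either: smooth muscle markers summed to 8142 to 9210 in DNTTIP1+/+ and 6280 to 7773 in DNTTIP1-/- libraries, and osteoblast markers to 909 to 1085 and 1238 to 1252. Of the 5 tested markers of each, 4 smooth muscle markers were lower and 4 osteoblast markers higher in both DNTTIP1-/- libraries (80.0%, against 18.9 and 20.1% of all tested genes). The part of these cell types in the collagen values was not tested.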

How the data were processed

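RNA-seq libraries of 10 MEF lines were analysed. Per the study's methods and the submitters' notes, the authors trimmed reads (Trim Galore 0.4.5, cutadapt 1.11), aligned them to mm10 with STAR 2.5.2b, removed duplicates (Picard, SAMtools 1.3.2) and used DESeq2; removing duplicates lowers the highest genes most. How reads were counted, on which annotation and strand, is not given in the sources used here. Deposited was a signal that is a normalised count, scaled by a size factor for each library. All values (100%) gave whole reads within a tolerance of 0.01, so reads were recovered; edgeR run on them called 863 genes in MIDEAS-/- and 5 in DNTTIP1-/- MEFs. The authors' own comparison sheets (fold changes, p-values) were not used.

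Values were tested as log2(value + 1) with limma 3.58.1 in R 4.3.3 (trend, robust) over 16227 genes averaging 10 or more, in 1 fit of 4 groups, called at an adjusted p under 0.1 (the study gives a P-value under 0.1 from DESeq2). Fold changes of low genes are understated by the pseudocount. Of 53801 genes, 53706 had a place in the GENCODE vM21 annotation; transcript length is that of the longest principal transcript. Lines were described as independent, and p-values measure the spread between these lines. No pair of libraries of a group differed by less than sampling noise (chi-square per gene 18.2 to 61.7). The fit was tested on simulated data.

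Members and lists were chosen with earlier results of these data known. Named are called genes, the 5 largest changes per knockout, the 5 highest levels, partner chains and type IV neighbours, and up to 6 called genes of each list; other collagens were named after their values were seen. Alternatives were other pseudocounts, filters and scaling, separate fits per family, a replicate block, no trend, edgeR 4.0.16, DESeq2 1.42.0 and each library left out; a lone library is then assumed to vary like the other groups. Figures used matplotlib 3.10.9.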

Additional observations from a re-analysis of the deposited data

How the results depend on the processing

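The count of collagen genes called in MIDEAS-/- MEFs, 7, was 4 to 8 with 1 library left out (4 without MIDEAS-/- replicate 2), 13 with the replicate number as a block, 10 by DESeq2, 8 with separate fits, 6 without the filter (Col14a1 lost) and 5 without the trend (Col14a1 and Col6a6 lost). The block added Col15a1, Col25a1, Col2a1 and Col9a3 as higher and Col4a5 and Col7a1 as lower (11 higher and 2 lower in all). The labels give these pairs no more than a number. Same-numbered MIDEAS libraries had correlations of 0.21, -0.11 and -0.05 of their deviations from group means. Not every MIDEAS library correlated best with its own number. In DNTTIP1 the same-numbered pairs had 0.66 and the crossed pairs -0.66, which with 2 libraries a group can differ in sign only. Whether the numbers pair the lines cannot be told from these values. The count of 0 in DNTTIP1-/- MEFs stayed 0 with any library left out and became 2 by DESeq2. For the difference between the effects 0 became 2 by DESeq2 (Col26a1 and Col9a2), and between the wild types 0 became 4 by DESeq2 and 0 to 1 with 1 library left out (Col9a2, without MIDEAS-/- replicate 1). Of the biosynthesis genes, 2 called in MIDEAS-/- MEFs became 5 with the replicate block, 1 without the trend, 8 by DESeq2 and 1 to 5 with 1 library left out, and 0 in DNTTIP1-/- MEFs became 1 by DESeq2. Over all genes, calls in MIDEAS-/- MEFs rose from 917 to 2025 with the block and 1674 by DESeq2, and in DNTTIP1-/- MEFs from 5 to 82 and 206. The difference in collagen read share lay between -0.004 and 0.093 percentage points (MIDEAS) and -0.038 and 0.054 (DNTTIP1) with 1 library left out. The cause of these changes was not tested. No log2 fold change of a called gene reversed.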
